A study of Mus musculus with 10 samples.

Results

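The protocadherins examined here were all genes whose symbol starts with Pcdh and that had an array row of their own in the platform annotation, without pseudogenes and without a filter on signal. There were 32 such genes among 30142 genes with a row naming a single symbol, and each had 1 row. They comprised 20 genes of the beta cluster (Pcdhb1 to Pcdhb20) and 12 non-clustered genes. The non-clustered genes fell into 4 of the delta-1 group (Pcdh1, Pcdh7, Pcdh9, Pcdh11x), 5 of the delta-2 group (Pcdh8, Pcdh10, Pcdh17, Pcdh18, Pcdh19) and Pcdh12, Pcdh15 and Pcdh20. The alpha and gamma clusters had no row of a single gene and were not analysed here as members, and 2 rows that name several protocadherins each were left out.

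The samples were 4T1, a long-established mammary tumour cell line of the mouse, seeded at 50000 cells and cultured for 5 days inside collagen gels. The low-density gels (LD) held 2 mg of collagen per mL and the high-density gels (HD) 3.5 mg per mL, and both were kept in RPMI 1640 medium with 10% fetal bovine serum. Each of the 5 LD and 5 HD samples was hybridised to 1 Affymetrix MTA 1.0 array, so that the number of arrays limits the precision. Whether the 5 samples per density were grown as separate cultures is not stated, and p-values therefore reflect only their spread, which may be technical.

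Protocadherins are the largest group within the cadherin superfamily of calcium-dependent adhesion proteins. The clustered genes lie in tandem arrays, in which every variable exon has its own promoter. CTCF and cohesin loop a chosen promoter to distant enhancers, and promoters that are not chosen are kept silent by DNA methylation, which in neurons gives single cells different combinations of surface proteins. Each beta gene is a single coding exon without the shared constant exons of the alpha and gamma clusters. The delta protocadherins are separate genes with roles in cell sorting and migration. Protocadherin promoters are frequent targets of hypermethylation in tumours.

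All values are log2 signals made with RMA, a method that corrects background, equalises arrays and summarises the probes of a row. A row's signal depends on its probes as well as on the RNA, so levels of different genes are not compared as amounts. As a guide to dim rows, the median of all rows (5.24) served as a floor, and 11 of the 32 members had a mean above it. Of these, 8 were beta genes (Pcdhb8 and Pcdhb14 to Pcdhb20) and 3 were non-clustered (Pcdh1, Pcdh8 and Pcdh18). The array's negative control rows had a median that went from 5.67 ± 0.052 in LD to 5.42 ± 0.12 in HD (SD over 5 arrays each), whereas the dimmer background rows had 3.47 ± 0.055 and 3.63 ± 0.057. These control rows thus moved with the groups, in opposite directions. In both groups 23 of the 32 members had mean signals at or below the negative control median of that group.

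A run of beta cluster genes, Pcdhb14 to Pcdhb20, was lower in the dense gels, whereas most other beta genes did not pass the test. With limma and Benjamini-Hochberg adjustment over all 30142 genes, 9 of the 20 beta genes fell at an adjusted p under 0.05 and none rose, against 11.3% of all genes called lower and 18.5% called higher. Of the 12 non-clustered members, none fell and 1 rose. At an unadjusted p under 0.05 no beta gene was higher and no non-clustered gene lower, while 9 beta genes were lower and 4 non-clustered genes higher. Of all 30142 genes, 4253 were lower and 8090 higher at that threshold. Ordinary t statistics of the same model gave 7 beta genes lower and none higher, and 1 non-clustered gene higher and none lower. They called 3298 of all genes lower and 5115 higher. The median log2 change was -0.06 over the beta cluster, 0.07 over the other members and 0.05 over all genes tested. The beta median lies near 0 because the cluster held genes of both kinds: the 7 genes Pcdhb14 to Pcdhb20 had a median of -0.71, and the 13 genes Pcdhb1 to Pcdhb13 had -0.05. This split was drawn after the changes were seen, so both medians describe it and test nothing. These are bulk samples, in which fewer cells that express a gene and less RNA per cell cannot be told apart.

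**Figure D1:**
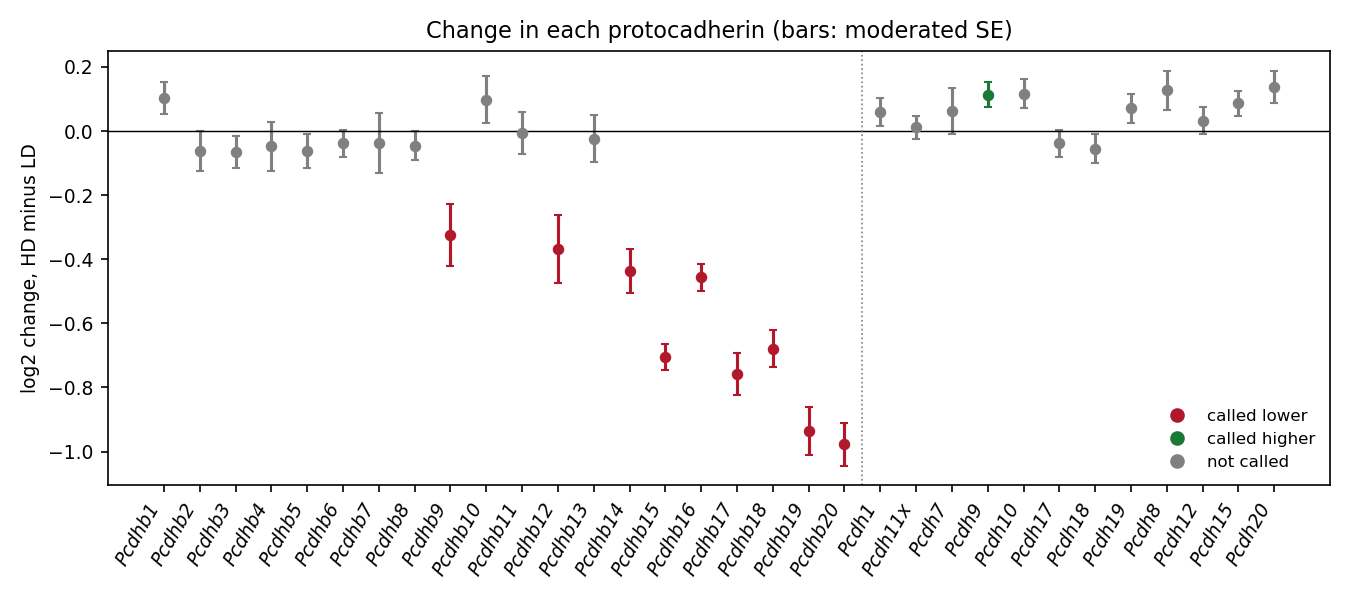
Log2 change from LD to HD (vertical axis, HD minus LD) for the 32 protocadherins, beta cluster genes in chromosomal order to the left of the dotted line and non-clustered genes to its right. Points are limma estimates with their moderated SE, from 5 LD and 5 HD arrays, and the 9 called falls are all in the beta cluster, with the largest at Pcdhb19 and Pcdhb20 (-0.94 and -0.98).

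The falls were grouped at one end of the cluster. In the order of RefSeq's mouse gene table, which matches the gene numbers, Pcdhb14 to Pcdhb20 are consecutive genes on chromosome 18 and lie towards the gamma cluster. All 7 fell by 1.35-fold to 1.97-fold, 5 of them by at least 1.5-fold, and in all 7 the 5 HD values lay wholly below the 5 LD values. Over all genes tested, 9.44% had HD values wholly below LD values, and 0.942% were called lower by at least 1.5-fold. As the run was marked off by its falls, these shares are context and not a test of it. Pcdhb15 to Pcdhb20 also had the brightest rows of the cluster, followed by Pcdhb8 and Pcdhb14, so that position in the cluster and signal were not separate features here. Pcdhb14 was above the floor only through its LD values.

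Pcdhb20 had the largest fall. Its signals were 7.36, 7.53, 7.24, 7.26 and 7.26 on LD arrays 1 to 5, and 6.55, 6.25, 6.29, 6.35 and 6.31 on HD arrays 1 to 5. The lowest LD array stood well above the highest HD array. The means were 7.33 ± 0.120 (SD, n = 5) and 6.35 ± 0.118, a drop of 1.97-fold (limma adjusted p = 5.2e-07 for a log2 change of -0.98 ± 0.0663 SE).

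Its neighbour Pcdhb19 followed closely. Signals were 6.80, 6.49, 6.50, 6.47 and 6.45 in LD and 5.61, 5.56, 5.42, 5.78 and 5.65 in HD. LD array 1 was higher than the other LD arrays, which lay within a narrow band, and all HD arrays were lower. The HD signals were near the negative control median of that group, and the fold was 1.91 (log2 change -0.94 ± 0.0749 SE, limma adjusted p = 1.6e-06).

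Pcdhb17 gave the brightest row among the 32 members. It read 8.53, 8.26, 8.28, 8.43 and 8.20 in LD and 7.70, 7.52, 7.48, 7.57 and 7.64 in HD, all well above the median of the negative control rows. Every HD array was below every LD array, and the signal was 1.69-fold lower (limma adjusted p = 2.6e-06 for a change of -0.76 ± 0.0646 SE).

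Pcdhb15 and Pcdhb18 had like signals and like falls. Pcdhb15 was at 7.15, 7.19, 7.12, 7.06 and 7.13 in LD and at 6.41, 6.53, 6.37, 6.37 and 6.44 in HD, with the tightest LD replicates of the 7 genes (SD 0.0471). It fell 1.63-fold (log2 change -0.71 ± 0.0412 SE, limma adjusted p = 1.7e-07). Pcdhb18 was at 7.20, 7.12, 7.17, 7.04 and 7.11 in LD and at 6.63, 6.52, 6.36, 6.42 and 6.32 in HD, and fell 1.60-fold (log2 change -0.68, limma adjusted p = 2.5e-06). In both genes the groups were separated by more than the spread within either group.

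Pcdhb16 and Pcdhb14 fell least among the 7. Pcdhb16 gave 7.34, 7.38, 7.26, 7.36 and 7.20 in LD and 6.84, 6.85, 6.91, 6.81 and 6.84 in HD, 1.37-fold lower with nearly identical HD replicates (SD 0.0354; log2 change -0.46, limma adjusted p = 4.3e-06). Pcdhb14 gave 5.70, 5.55, 5.40, 5.58 and 5.54 in LD and 5.29, 5.16, 4.97, 4.99 and 5.18 in HD. Its means lay around the floor and below the negative control median of each group, so its 1.35-fold difference is that of a dim row (change -0.44 ± 0.0679 SE, limma adjusted p = 2.9e-04).

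**Figure D2:**
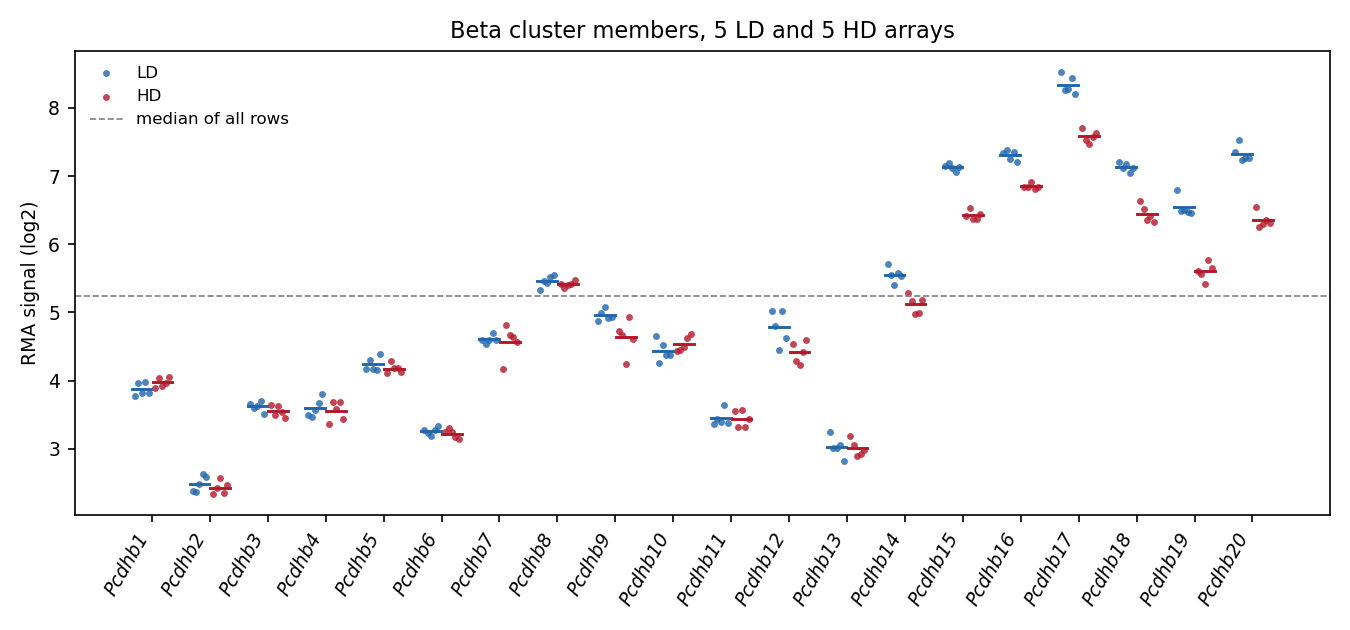
RMA signal (log2, vertical axis) of the 20 beta cluster genes in chromosomal order; each point is 1 array (5 LD, 5 HD), horizontal bars are group means and the dashed line is the median of all rows (5.24). From Pcdhb14 on, all HD points lie below all LD points, while most genes before it are below the dashed line and overlap between groups.

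The remaining 13 beta genes were mostly dim. Means over 10 arrays ran from 2.46 for Pcdhb2 to 5.44 for Pcdhb8. Of the 12 beta genes at or below the floor 2 fell, Pcdhb12 and Pcdhb9, against 2.24% of all genes there, and in both the groups overlapped. Pcdhb12 read 5.01, 4.80, 4.45, 5.02 and 4.63 in LD and 4.53, 4.29, 4.23, 4.42 and 4.59 in HD, a change of -0.37 ± 0.107 SE (limma adjusted p = 0.019). Pcdhb9 read 4.87, 4.99, 5.08, 4.92 and 4.94 in LD and 4.73, 4.67, 4.24, 4.93 and 4.61 in HD, a change of -0.32 ± 0.0976 SE (limma adjusted p = 0.023). HD array 3 was the lowest HD value of both genes. The Pcdhb12 call was lost without LD replicate 1 or HD replicate 3 (adjusted p = 0.052 and 0.051), and the Pcdhb9 call without LD replicate 3 (adjusted p = 0.055).

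The other 11 beta genes did not pass the test, with differences from -0.07 to 0.10. Pcdhb8 was the single beta gene above the floor without a call. It read 5.32, 5.47, 5.44, 5.52 and 5.55 in LD and 5.42, 5.36, 5.40, 5.42 and 5.47 in HD, with full overlap. The 95% interval of its difference in signal was -0.14 to 0.05. All 11 genes, Pcdhb8 included, had means at or below the negative control median in both groups, so that a change in them may not be detectable on this array.

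The falls differed in size between beta genes. For pairs of beta genes above the floor, the within-array difference between the genes was compared between the 5 LD and 5 HD arrays with a two-sided exact permutation test, adjusted over 28 pairs. The pairs with Pcdhb8, which was not above the negative control rows, and with Pcdhb14, which passed the floor only through LD, are not used. Of the 15 pairs among Pcdhb15 to Pcdhb20, 11 passed. Pcdhb20 fell by more than Pcdhb16 (difference in log2 change 0.52 ± 0.0715 SE, exact p = 0.0079, the lowest possible with 5 arrays per group, adjusted p = 0.013), whereas Pcdhb19 and Pcdhb20 differed by 0.04 ± 0.103 SE (exact p = 0.70, adjusted p = 0.74). Beta genes are close paralogs whose probes may not separate fully, and rows nearer to background show smaller changes, so these are differences between rows. The part of either in them was not tested.

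The negative control rows of the array moved in the same direction as the beta genes. A change as low as that of Pcdhb9, Pcdhb12, Pcdhb14 or Pcdhb16 was found in 35.5%, 30.2%, 23.4% and 21.4% of the 5222 negative control rows, against 3.55%, 2.74%, 1.91% and 1.74% of all genes tested. For Pcdhb18, Pcdhb15 and Pcdhb17 the shares of negative control rows were 6.80%, 5.94% and 4.52%, and for Pcdhb19 and Pcdhb20 they were 1.49% and 1.17%. When each array was scaled on its negative and positive control rows, Pcdhb14 to Pcdhb20 were still called lower. Their changes were then -0.17 (Pcdhb14, limma adjusted p = 0.033) to -0.84 (Pcdhb20, limma adjusted p = 6.8e-06). Pcdhb9 and Pcdhb12 were not called under that scaling (-0.01 and -0.04), and Pcdhb8 became higher (0.21, limma adjusted p = 0.021). In all, that scaling called 10 beta genes higher, with a cluster median of 0.25. The scaling also moved the median of all genes tested from 0.05 to 0.30. It called 20365 of the 30142 genes higher and 3264 lower, and quantile normalization called 7792 higher and 3015 lower. Counts for members and lists under either scaling are to be set against these. The share of lower genes among all calls was 37.9% as deposited, 27.9% after quantile normalization and 13.8% after the control-row scaling.

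**Figure D3:**
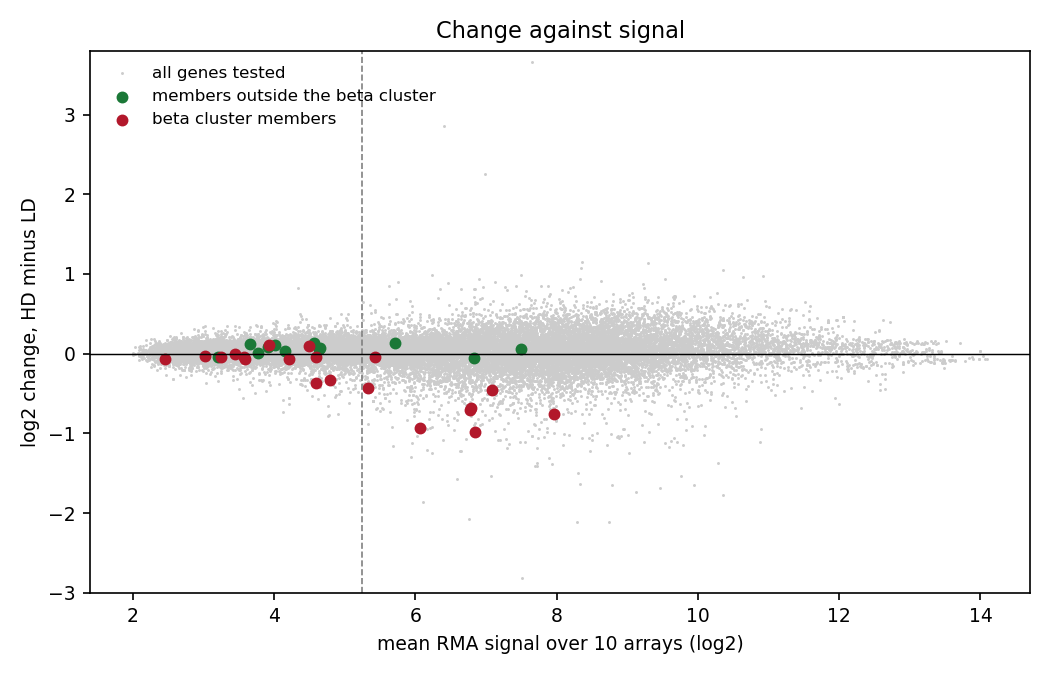
Log2 change (HD minus LD, vertical axis) against mean RMA signal over 10 arrays (log2, horizontal axis) for 30142 genes (grey), the 20 beta cluster genes (red) and the 12 other protocadherins (green); the dashed line is the median of all rows. Pcdhb14 to Pcdhb20 lie at -0.44 or lower to the right of the dashed line, and the 3 members there from outside the cluster lie between -0.05 and 0.13.

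Non-clustered protocadherins showed small differences, most of them upward and not called. No member had HD values wholly above LD values, against 14.2% of all genes. Of those 4294 genes 3847 were above the floor, whereas 21 of the 32 members were at or below it. Pcdh1, a delta-1 member found at epithelial junctions, had the brightest row of these genes. It read 7.52, 7.46, 7.40, 7.53 and 7.46 in LD and 7.43, 7.60, 7.54, 7.58 and 7.50 in HD, with overlap (log2 difference 0.06, 95% interval -0.03 to 0.15, limma adjusted p = 0.31). Pcdh18, a delta-2 member, read 6.98, 6.78, 6.89, 6.79 and 6.85 in LD and 6.81, 6.86, 6.70, 6.81 and 6.83 in HD (difference -0.05, 95% interval -0.15 to 0.04). Pcdh8, a delta-2 member known from mesoderm formation and synapses, read 5.52, 5.57, 5.63, 5.77 and 5.75 in LD and 5.60, 5.87, 5.84, 5.80 and 5.77 in HD (difference 0.13, 95% interval -0.004 to 0.26, limma adjusted p = 0.13). In all 3 genes the groups overlapped, and the intervals left out a fall of the size seen in Pcdhb14 to Pcdhb20. The LD mean of Pcdh8 (5.65) was below the LD median of the negative control rows (5.67), so its interval is that of a dim row. After quantile normalization, Pcdh1 and Pcdh8 were called higher (limma adjusted p = 0.034 and 0.047), as after control-row scaling (0.044 and 0.006). Pcdh8 was also called higher without HD replicate 1 (0.036).

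The other 9 non-clustered genes were below the floor, with means of 3.21 to 4.65. Pcdh9, a delta-1 member of the nervous system, was the single member called higher. It read 3.95, 3.94, 3.91, 3.95 and 4.01 in LD and 4.08, 4.10, 4.15, 4.01 and 4.01 in HD, a change of 0.11 ± 0.0390 SE (limma adjusted p = 0.043). This change was below that of the background rows (0.16), and the call was lost without any of LD replicates 1 to 4 or HD replicates 1 to 3 (adjusted p between 0.069 and 0.10). In all, the Pcdh9 call was lost in 12 of 20 alternatives. Pcdh20 lay just outside the threshold, at 4.46, 4.45, 4.54, 4.60 and 4.41 in LD and 4.59, 4.59, 4.72, 4.71 and 4.54 in HD (log2 difference 0.14, limma adjusted p = 0.05). It was called higher after quantile normalization, median centring and control-row scaling (adjusted p = 0.031, 0.033 and 0.0011), with array weights or the replicate block (0.039 and 0.019), and without LD replicate 4 or HD replicate 5 (0.026 and 0.033). Pcdh7, a delta-1 member studied in brain metastasis, differed by 0.06 with overlapping groups, and Pcdh19, the X-linked epilepsy gene, by 0.07. Pcdh12 of endothelial cells differed by 0.03 and Pcdh15 of the hair-cell tip link by 0.09. At these signals, none of these rows gives a measure of expression apart from background.

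**Figure D4:**
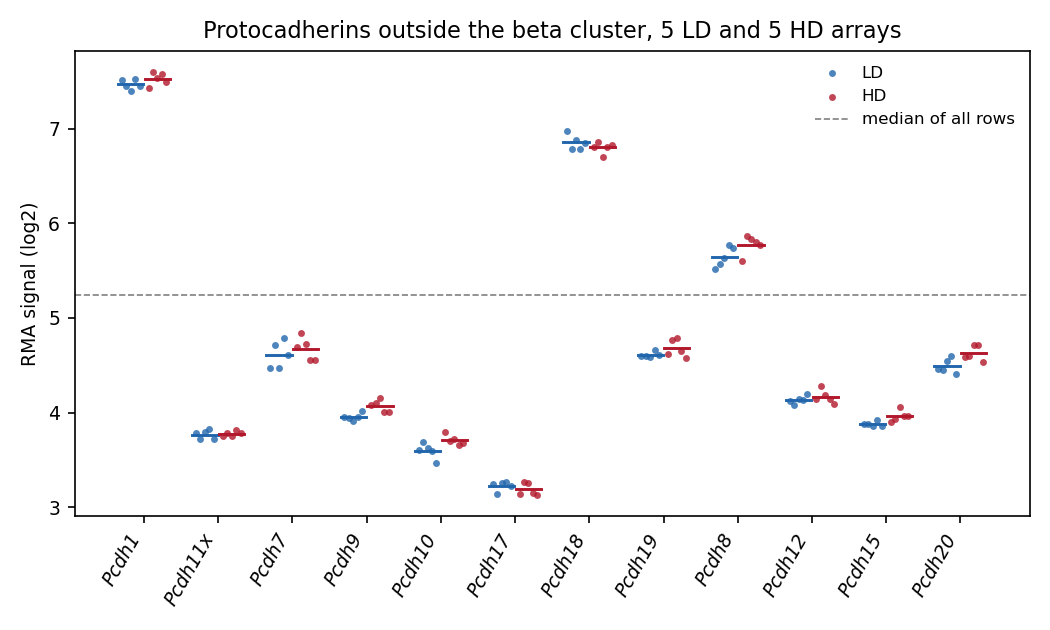
RMA signal (log2, vertical axis) of the 12 protocadherins outside the beta cluster; each point is 1 array (5 LD, 5 HD), bars are group means and the dashed line is the median of all rows (5.24). LD and HD points overlap in all 12 genes, and 9 of them lie below the dashed line.

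Of 24 measured genes that govern the choice and silencing of clustered protocadherin promoters, 5 rose and 4 fell; their median change was -0.00029. All were above the floor, where 26.8% of genes were called higher and 17.6% lower, so the counts were near the background, and the control-row scaling gave 4 higher and 7 lower. Tet2 and Tet1, which oxidise methylated cytosine, fell. Tet2 read 8.31, 8.12, 8.02, 8.15 and 7.98 in LD and 7.36, 7.16, 7.03, 7.27 and 7.34 in HD. This was a 1.85-fold fall with no overlap (limma adjusted p = 1.8e-06 for a log2 change of -0.89 ± 0.0721 SE). Tet1 was 1.43-fold lower. Uhrf1, which brings the maintenance methyltransferase to newly replicated DNA, rose 1.33-fold (log2 change 0.41, limma adjusted p = 3.6e-05).

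The maintenance methyltransferase itself, Dnmt1, and Smchd1, a chromatin protein that represses protocadherin clusters, rose by 0.26 and 0.22 on the log2 scale (limma adjusted p = 1.1e-04 and 0.0035). Ctcf rose by 0.11 (limma adjusted p = 0.029). The remaining called genes of the list were the cohesin genes Pds5a (0.12) and Mau2 (-0.23) and the histone methyltransferase Ehmt1 (-0.23). These 6 genes were named after their values were seen. The Dnmt1 call ended under the control-row scaling (adjusted p = 0.32). The Ctcf call ended there too (adjusted p = 0.81) and after quantile normalization (adjusted p = 0.22), and without any of LD replicates 1 to 4 or HD replicates 1, 4 and 5 (adjusted p of 0.051 to 0.078). It also ended with the replicate block and when all transcript cluster rows were tested (limma adjusted p = 0.064 and 0.063).

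Of 19 measured partners and signalling genes of protocadherins, 8 rose and 1 fell, against 26.8% and 17.6% of genes above the floor, where all 19 lay. The list's median was 0.10, and the control-row scaling gave 7 higher and 3 lower. Pdcd10, an adaptor of Ste20-family kinases, rose 1.34-fold (log2 change 0.42 ± 0.0589 SE, limma adjusted p = 1.3e-04), and the Src-family kinase Fyn rose 1.18-fold. Ptk2b, the kinase Pyk2 that clustered protocadherins bind and inhibit, fell 1.20-fold (log2 change -0.26, limma adjusted p = 5.8e-04). Of 7 genes of ectodomain shedding and gamma-secretase cleavage, which process protocadherins, 2 fell and none rose, against the same 17.6% and 26.8%; the control-row scaling gave 4 lower and 1 higher. At an unadjusted p under 0.05, 3 were lower and 2 higher, against 3768 and 6279 of the 17800 genes above the floor. Ncstn (nicastrin) and Adam17 were 1.14-fold and 1.11-fold lower.

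Of 23 classical, desmosomal and related cadherins, 4 rose and 3 fell (median 0.05), near the 18.5% and 11.3% of all genes. The control-row scaling called 19 of the 23 higher and 2 lower, against 20365 and 3264 of all 30142 genes. The largest changes were those of Cdhr1 (1.33-fold higher), Cdh17 (1.21-fold higher) and Dsg2 (1.12-fold lower). The other called genes were Cdh1 (E-cadherin, -0.10), Cdh2 (N-cadherin, 0.13), Cdh13 (0.11) and Cdh23 (-0.16). These 4 were named after their values were seen. Cdh2 and Cdh13 were below the floor (means 4.60 and 4.88), and their changes were smaller than that of the background rows (0.16). Of 11 Fat, Dachsous, Celsr and calsyntenin genes, Celsr2 rose 1.14-fold and Celsr1 was 1.12-fold lower, against 18.5% and 11.3% of all genes. Quantile normalization gave 5 higher and 1 lower there, and control-row scaling 8 and 2. The Celsr1 call ended after quantile normalization and control-row scaling (adjusted p = 0.071 and 0.15). Of 12 catenins and junction plaque genes, 4 fell and 1, Pkp1, rose, against 11.3% and 18.5% of all genes. However, 11 of the 12 were above the floor, where 17.6% of genes were called lower and 26.8% higher. The control-row scaling gave 5 lower and 3 higher. Pkp2 (plakophilin 2), Jup (plakoglobin) and Ctnnd1 (p120 catenin) were 1.28-fold, 1.23-fold and 1.15-fold lower, and Ctnna1 (alpha-catenin) differed by -0.13; Pkp1 and Ctnna1 were named after their values were seen.

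Of 21 measured genes that flank the protocadherin clusters, 7 rose and 4 fell, against 18.5% and 11.3% of all genes. However, 18 of the 21 were above the floor, where 26.8% of genes were called higher and 17.6% lower. The list's median was 0.05. The control-row scaling gave 12 higher and 5 lower, against 20365 and 3264 of all 30142 genes. Tmco6 was 1.32-fold lower, while Ndufa2 (a complex I subunit) and Hars (histidyl-tRNA synthetase) were higher by 0.38 and 0.32 on the log2 scale.

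**Figure D5:**
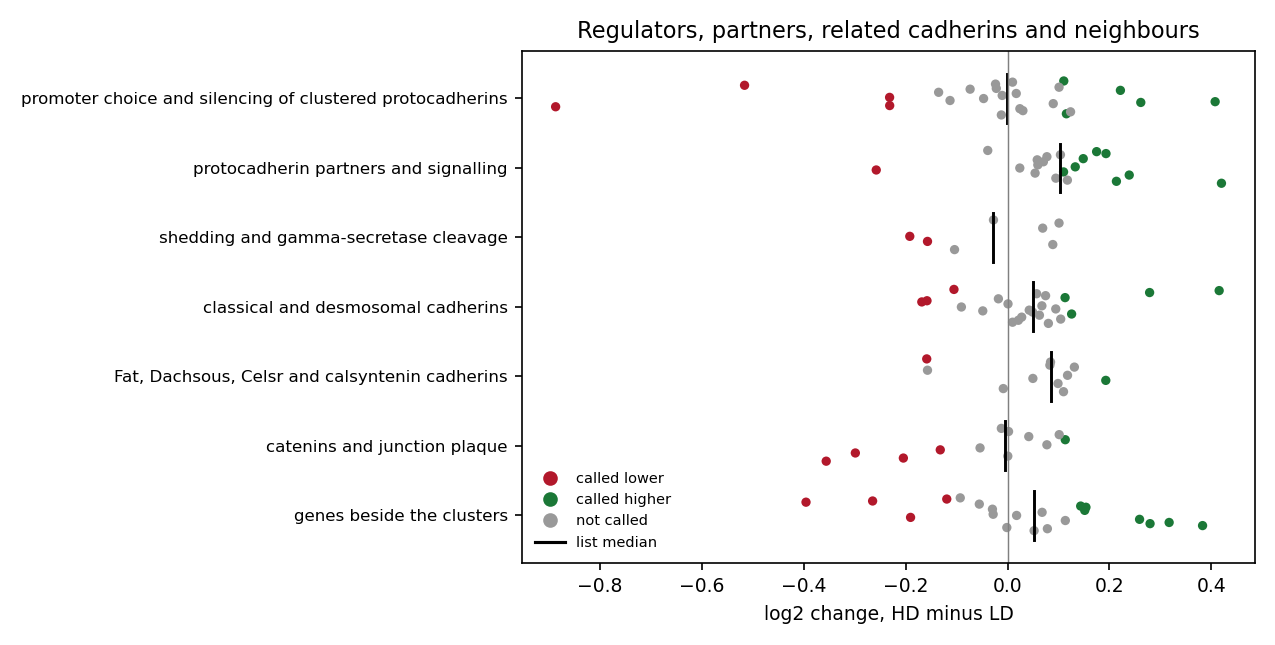
Log2 change (HD minus LD, horizontal axis) of each measured gene on 7 lists of regulators, partners, related cadherins and neighbouring genes; points are genes coloured by the limma call and black bars are list medians. The lists hold called genes of both directions except the 7 shedding genes, and list medians run from -0.03 to 0.10.

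Cell type markers were checked because protocadherins are best known from neurons. Epithelial markers ran from 5.37 for Muc1, close to the floor, to 12.2 for Krt18, with Epcam at 10.5. Of 15 measured, 7 fell and none rose, against 17.6% and 26.8% of genes above the floor, where all 15 lay. At an unadjusted p under 0.05, 1 was higher, against 6279 of the 17800 genes above the floor. The largest falls were those of the tight-junction gene Cldn4 (2.13-fold), Krt19 (1.69-fold) and Epcam (1.52-fold). Quantile normalization gave 6 lower and 2 higher, and control-row scaling 8 and 3. The mean signal of the list was 9.12 to 9.16 in LD and 8.93 to 9.02 in HD.

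Neuronal and glial markers had 10 of 17 rows above the floor, while the neuronal genes Snap25 and Syt1 were below it at 4.70 and 4.72. Genes on that list had mean signals of 3.94 to 6.94. Map2, Syp, Rbfox3 and Nefm were higher, by 0.17, 0.17, 0.14 and 0.14, and none was lower, against 18.5% and 11.3% of all genes. Nefm was below the floor (mean 4.34) with overlapping groups, and its change was smaller than that of the background rows (0.16). Whether the Nefm call held under the alternatives was not tested. The Syp call ended without LD replicate 1 or 2 or HD replicate 3, and the Rbfox3 call without LD replicate 1 or HD replicate 3 or 4 (adjusted p of 0.051 to 0.063). Quantile normalization and control-row scaling called 12 and 16 of the 17 higher, against 7792 and 20365 of all 30142 genes. The list mean was 5.26 to 5.34 in LD and 5.36 to 5.48 in HD. Of 11 fibroblast and endothelial markers 1 rose, Acta2 by 0.18, and none fell, against 18.5% and 11.3% of all genes. Quantile normalization called 4 of them higher and control-row scaling 11, against 7792 and 20365 of all 30142 genes. The mean signal of these markers was 4.78 to 4.92 in LD and 4.86 to 5.02 in HD. Of 7 leukocyte markers Cd3e rose by 0.16 and Cd68 fell by 0.74, against the same 18.5% and 11.3%. Control-row scaling called 6 of the 7 higher, against 20365 of all 30142 genes. The Cd3e call ended without LD replicate 1, 2 or 5 or any of HD replicates 1 to 4 (adjusted p of 0.051 to 0.10). It also ended with array weights or all transcript cluster rows (limma adjusted p = 0.076 and 0.067) and with ordinary t statistics (adjusted p = 0.074). The mean signal of the leukocyte markers was 4.93 to 4.99 in LD and 4.89 to 4.97 in HD. Single genes ran from 3.11 for the pan-leukocyte gene Ptprc to 8.20 for Cd68. Krt18, Muc1, Snap25, Syt1, Ptprc and Nefm were named after their values were seen. The part of these shifts in the protocadherin results was not tested.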

How the data were processed

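Gene expression was measured in 10 samples of 4T1 cells, 5 per gel density, on 1-colour Affymetrix MTA 1.0 arrays. RMA was the authors' method for the deposited log2 values, per the submitters' processing notes, and it compresses folds. Its software, the annotation and the genome build were not given in the sources used here; coordinates are therefore left out. Array medians were 5.19 to 5.28. Of 72688 rows, 6732 were control rows and 30604 named 1 symbol in the platform annotation, giving 30142 genes, each represented by its brightest row. RefSeq's mouse gene table (GRCm38.p6) matched 22818 rows, updated 827 symbols and gave gene order.

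The 2 densities were compared by lmFit and eBayes of limma 3.58.1, under R 4.3.3, without covariates or a signal filter, with Benjamini-Hochberg adjustment over all genes and a threshold of 0.05. Pairs of beta genes were compared by exact permutation. Of these steps, the limma comparison was tested on simulated data. Whether same-numbered samples were pairs is not stated, and the main test did not treat them as such. Their deviations from the group means correlated at -0.044 to 0.16, which cannot show how the samples were handled. Scan dates and batches were not used here. Named are the 10 called members with the largest change in each direction, the 3 brightest members of each subgroup, and the 3 called genes with the largest change on each of 11 lists. The members and lists were chosen with earlier results of these data known. Alternatives were other scalings (quantile, median centring, control rows), filters, variance models and weights, the mean of a gene's rows, all rows, a replicate block and leaving out each array.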

Additional observations from a re-analysis of the deposited data

Results flagged for a closer look

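In 7 of 120 groups of 5 arrays, the highest or lowest array was set apart from the others by more than 0.71 of the group's range (Dixon's 95% value); chance alone flags about 1 in 20 groups. Among the members, Pcdhb19 in LD had a gap of 0.872 of its range, with LD array 1 at 6.80 above the next at 6.50, which still left all LD values above all HD values. Pcdhb11 in LD had a gap of 0.741 of its range, with LD array 4 at 3.65 above the next at 3.44 in a dim row without a call. Among the listed genes, Uhrf1 in HD (0.740 of its range, HD array 5 lowest), Pdcd10 in HD (0.719, HD array 5 highest), Cdh17 in LD (0.889, LD array 4 lowest) and Ndufa2 in LD (0.871, LD array 5 highest) were set apart in the same way. In these 4 genes the LD and HD values did not overlap. The leukocyte marker Cd3e in HD had a gap of 0.749 of its range, with HD array 3 at 5.58 above the next at 5.44, and its groups overlapped.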

How the results depend on the processing

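Pcdhb14 to Pcdhb20 were called lower under all alternatives that gave them a value, with log2 changes of -0.48 to -0.17 for Pcdhb14 and -1.03 to -0.84 for Pcdhb20; the filter at the 75th percentile of rows left 2 protocadherins called lower, both beta genes, since it removed the dimmer rows. With the replicate number as a block, 9 beta genes were again lower. Pcdhb12 lost its call in 5 of 20 alternatives and Pcdhb9 in 3 of 20. Pcdh9 lost its call in 12 of 20, among them the replicate block, median centring and array weights (limma adjusted p = 0.09, 0.052 and 0.059). With the replicate block, median centring or array weights, the member called higher was Pcdh20 and not Pcdh9. The count of members called higher (1 as reported) was 0 under either filter, an intensity trend or all rows tested, 4 after quantile normalization, 21 after control-row scaling and 0 to 2 when 1 array was left out. Of all 30142 genes, quantile normalization called 7792 higher and the control-row scaling 20365. The control-row scaling called 10 beta genes higher, reversed Pcdhb8 (0.21), and gave medians of 0.25 for the beta cluster and 0.40 for the other members, beside 0.30 for all genes. The beta median was -0.69 with the filter at the median of all rows and -0.61 with the stricter one, since these left fewer genes. Signal over background limits the 21 members at or below the floor: their values bound no change in RNA. Probes of close paralogs may not separate them, and RMA compresses folds.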

Other observations

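The 2 rows that name several protocadherins were tested with limma over all 65956 transcript cluster rows. The row shared by Pcdhb21 and Pcdhb22, the beta genes that follow Pcdhb20, was at 6.37 to 6.55 in LD and 5.76 to 5.86 in HD, without overlap (6.48 ± 0.0727 and 5.80 ± 0.0518, SD, n = 5). Its log2 change was -0.68 ± 0.0473 SE (limma adjusted p = 2.2e-06), and the row does not say which of the pair it measured. The row shared by 15 genes of the alpha cluster was dim, at 3.64 ± 0.0351 in LD and 3.74 ± 0.0497 in HD, with a log2 difference of 0.10 (limma adjusted p = 0.11). Single genes of the alpha cluster could not be read from it.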
